A study of Rattus norvegicus with 6 samples.

Results

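The Nr4a genes Nr4a1, Nr4a2 and Nr4a3 were followed in rat organotypic hippocampal cultures after a block of GABA-A receptors. Every probe set whose only gene symbol in the platform annotation is one of these names was taken, which gave 3 of 14218 named genes and 6 of the 31099 probe sets of the array: 1 for Nr4a1, 2 for Nr4a2 and 3 for Nr4a3. Within these genes the choice of probe sets used no measured value, but the genes themselves were chosen with earlier results of these data known. Their shares beside those of the whole array are therefore a description. The cultures were hippocampal slices of Wistar rats, labelled P4 in the sample descriptions and P4 to P5 in the methods, and kept by the roller tube method. They were either left untreated (control, 3 samples) or given 20 µM gabazine, an antagonist of the GABA-A receptor, for 90 min (GabT, 3 samples), and no genotype or other agent separates the groups. In each replica, the cultures of 2 littermates were divided between control and GabT, so the arrays with the same number form a pair and the log2 ratio of a replica is its GabT value minus its control value.

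Nr4a1 (also called Nur77 or NGFI-B), Nr4a2 (Nurr1) and Nr4a3 (Nor1) form a small family of nuclear receptors, transcription factors with a DNA-binding domain and a fold that in other receptors holds a hormone. They are called orphan receptors because no classical hormone is known to switch them on, and their activity depends largely on how much protein the cell makes. Their transcripts belong to the immediate early genes, which are copied within minutes of synaptic activity, calcium entry or growth factors and need no new protein. In the hippocampus they are known for their part in long-term memory and in the response of neurons to activity. Whether the 3 genes respond alike to a sudden rise of network activity is the comparison that these arrays allow.

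The arrays give log2 intensities after RMA (Robust Multi-array Average), with no measure of detection, so levels of different probe sets were not compared. Medians of the arrays lay between 7.89 and 8.71, and both arrays of replica 2 were the lowest, so that values were compared mainly within a replica. Whether the arrays of all replicas were normalized together is not stated, and the group SDs, the gaps between groups and the fit without pairing, which set replicas side by side, would carry any difference in scale between them. Replica 1 stood apart: the SD of the log2 ratios over all probe sets was 0.475, against 0.247 and 0.230 in replicas 2 and 3. The log2 ratio of the 5′ probe set of beta-actin exceeded that of its 3′ probe set by 1.70 in replica 1, and these differences were -0.25 and 0.10 in replicas 2 and 3. Beta-actin was the widest case: in replica 1 the difference was 0.5 for GAPDH and 0.38 for hexokinase. For the control transcripts of the array not named as rat, it ran from -0.24 to 1.37 in replica 1. Ttr, a transcript of the choroid plexus, had log2 ratios of 4.59, 0.14 and 0.07. The other measured markers of the choroid plexus did not follow Ttr in replica 1, with log2 ratios of 0.59 for Folr1, 0.0 for Kl and 0.16 for Kcnj13. Each Nr4a value is therefore also given without replica 1, and the part of RNA quality or of tissue from the choroid plexus in the results was not tested. Mean log2 levels lay between 10.02 and 11.25 for 7 genes of excitatory neurons and between 12.41 and 13.12 for 6 genes of astrocytes. Other lists overlapped the neurons, such as meningeal cells and fibroblasts at 9.12 to 11.46, so these levels do not rank the cell types. The median log2 ratios of the excitatory neuron and astrocyte lists were 0.23 and 0.03, and over all 8 cell type lists the medians lay between -0.01 and 0.24. The highest was that of the oligodendrocytes, with medians of 0.26, 0.31 and 0.06 in replicas 1, 2 and 3. In this list 2 of 5 measured genes had a higher value at an unadjusted p under 0.05 by limma, against 2.37% of all genes. Its part in the results was not tested. In such whole cultures, more cells of a type and more RNA per cell cannot be told apart.

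All 3 Nr4a genes were higher after GabT in every replica on at least 1 probe set, and 4 of the 6 probe sets were among the 10 highest mean log2 ratios of the array. The mean ratio (2 to the power of the mean log2 ratio) was 10.5-fold on the strongest probe set of Nr4a3, 9.49-fold on that of Nr4a2 and 6.20-fold on the probe set of Nr4a1. The other probe sets of Nr4a3 had ratios of 1.95-fold and 1.15-fold, so that the probe sets of this 1 gene spanned the whole range.

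**Figure D1:**
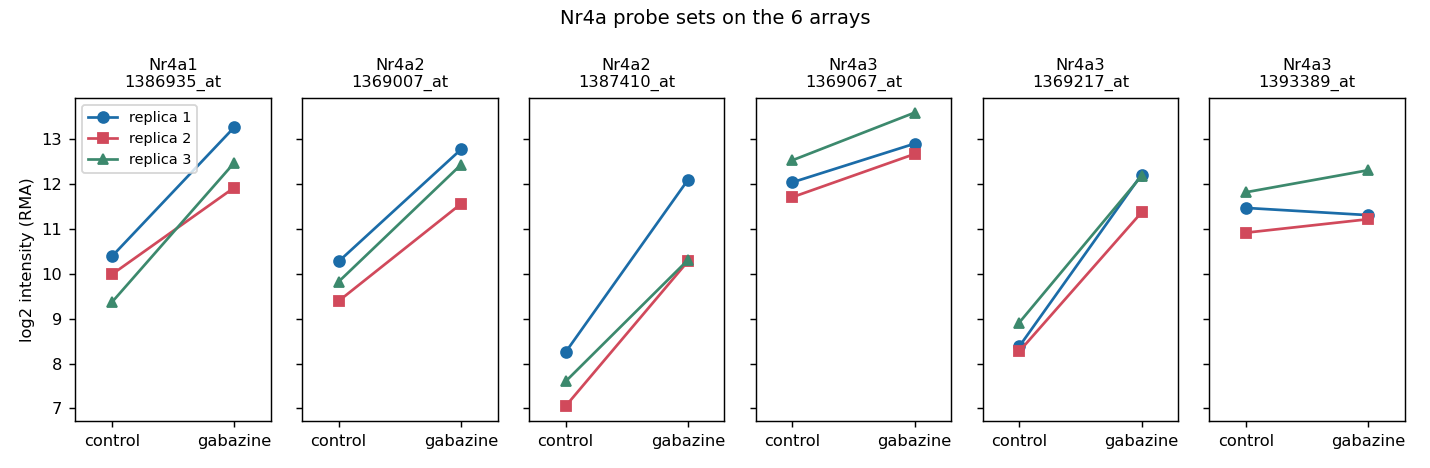
Deposited log2 intensity (vertical axis) of each Nr4a probe set in control and GabT cultures (horizontal axis), with a line joining the 2 arrays of each replica. All lines climb except that of replica 1 on probe set 1393389_at, which goes from 11.46 to 11.30.

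Nr4a1 is read by a single probe set, 1386935_at. Its log2 intensity was 10.38, 9.98 and 9.36 in control replicas 1, 2 and 3, and 13.25, 11.91 and 12.46 in the GabT cultures of the same replicas. Every GabT array was above every control array, with a gap of 1.53 between the lowest GabT and the highest control value. The group means were 9.91 ± 0.51 and 12.54 ± 0.67 (SD, n = 3). The log2 ratios were 2.87, 1.94 and 3.10, that is 7.29-fold, 3.82-fold and 8.55-fold, and their mean was 2.63 ± 0.61 (SD, n = 3). Replica 2 gave the smallest ratio. Without replica 1 the mean was 2.52. The limma test with the replica as a block gave an adjusted p of 0.747 (Benjamini-Hochberg, across the whole array) and 0.00326 before the adjustment.

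Nr4a2, which dopamine neurons of the midbrain need for their development, is read by probe sets 1369007_at and 1387410_at. On 1369007_at the log2 intensity was 10.27, 9.39 and 9.82 in control and 12.76, 11.55 and 12.42 after GabT. On 1387410_at it was 8.25, 7.05 and 7.60 in control and 12.08, 10.27 and 10.30 after GabT. The groups did not overlap on either probe set, and GabT replica 1 was the highest array on both. The log2 ratios were 2.49, 2.17 and 2.60 on 1369007_at, with a mean of 2.42 ± 0.22 (SD, n = 3), a ratio of 5.34-fold. They were 3.83, 3.22 and 2.69 on 1387410_at, with a mean of 3.25 ± 0.57 (SD, n = 3). On 1369007_at the 3 replicas lay close together, while on 1387410_at the ratio ran from 6.48-fold to 14.2-fold. Without replica 1 the means were 2.38 and 2.96. The adjusted p by paired limma was 0.747 for both, from 0.000247 and 0.00143 before the adjustment.

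Nr4a3 is read by 3 probe sets, and they gave 3 different pictures. On 1369217_at the log2 intensity was 8.38, 8.27 and 8.91 in control and 12.20, 11.36 and 12.17 after GabT. The lowest GabT array was 2.45 above the highest control array, the widest gap of the 6 probe sets. The log2 ratios were 3.82, 3.09 and 3.26, with a mean of 3.39 ± 0.38 (SD, n = 3), the highest of all 31099 probe sets of the array. Without replica 1 the mean was 3.18. The adjusted p by paired limma was 0.747, from 0.000399.

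On the second Nr4a3 probe set, 1369067_at, the log2 intensity was 12.03, 11.70 and 12.52 in control and 12.89, 12.66 and 13.58 after GabT. The groups were again apart, but by only 0.14. The log2 ratios of 0.86, 0.96 and 1.06 were the most even of the 6 probe sets, with a mean of 0.96 ± 0.10 (SD, n = 3), and the mean without replica 1 was 1.01. Paired limma gave an adjusted p of 0.747, from 0.000483. On the third, 1393389_at, the log2 intensity was 11.46, 10.91 and 11.81 in control and 11.30, 11.21 and 12.30 after GabT. These groups overlapped. The log2 ratios were -0.16, 0.29 and 0.49, with a mean of 0.21 ± 0.33 (SD, n = 3) and, without replica 1, of 0.39. Here paired limma gave an adjusted p of 0.747, from 0.295.

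**Figure D2:**
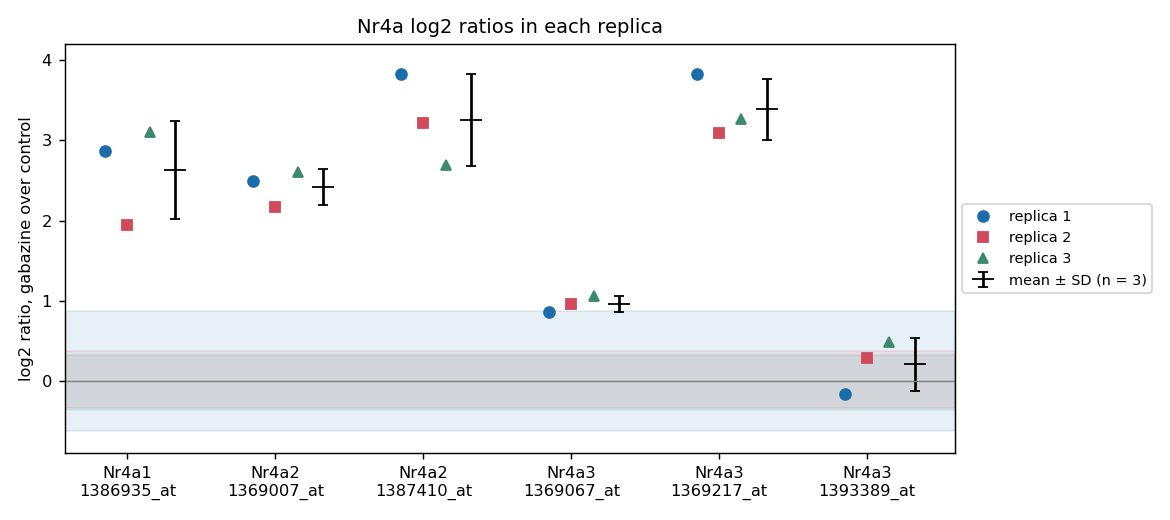
Log2 ratio of GabT over control (vertical axis) of the 6 Nr4a probe sets in each replica, with the mean ± SD over 3 replicas in black. The shaded bands span the 5th to the 95th percentile of all probe sets, from -0.62 to 0.88 in replica 1 (blue), -0.34 to 0.37 in replica 2 (red) and -0.36 to 0.32 in replica 3 (green), and the points of the 4 strongest probe sets lie above all bands.

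The paired fit called 0 of the 31099 probe sets at an adjusted p under 0.05 (0% of the array), while 571 were higher and 835 lower with p under 0.05 before the adjustment. It rests on 3 pairs and leaves 2 residual degrees of freedom. Of the 6 Nr4a probe sets, 5 had an unadjusted p under 0.05 and a higher value, against 1.84% of all probe sets. The same 5 were higher in all 3 replicas, against 6.92% of all probe sets, and had no overlap between the groups, against 0.289%. With each array centred on its median the groups of 5 of the 6 were apart, against 0.794% of all probe sets. A mean ratio above 2 was found for 4 of the 6 and for 0.315% of the array. When the pairing was left out of the fit, 4 of the 6 passed the adjusted threshold, and 14 probe sets, 0.045% of the array, passed in all. The adjusted p by limma without the pairing was 0.00432 for Nr4a1, 0.0249 and 2.4e-05 for the 2 probe sets of Nr4a2, and 8.87e-06 for 1369217_at of Nr4a3, and 1.0 for the other 2.

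Within single replicas the order of the probe sets was less fixed than in the mean. The probe set 1369217_at of Nr4a3 ranked 6, 4 and 6 of all probe sets by its log2 ratio in replicas 1, 2 and 3, and 1387410_at of Nr4a2 ranked 5, 2 and 10. Nr4a1 ranked 36, 21 and 7, and 1369007_at of Nr4a2 ranked 87, 14 and 12. The probe set 1369067_at of Nr4a3 ranked 1615, 231 and 91. For Nr4a1, 1369007_at and 1369067_at the rank was farthest from the top in replica 1, where the ratios of the whole array spread most widely. The last probe set of Nr4a3, 1393389_at, ranked 22540, 2253 and 518.

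**Figure D3:**
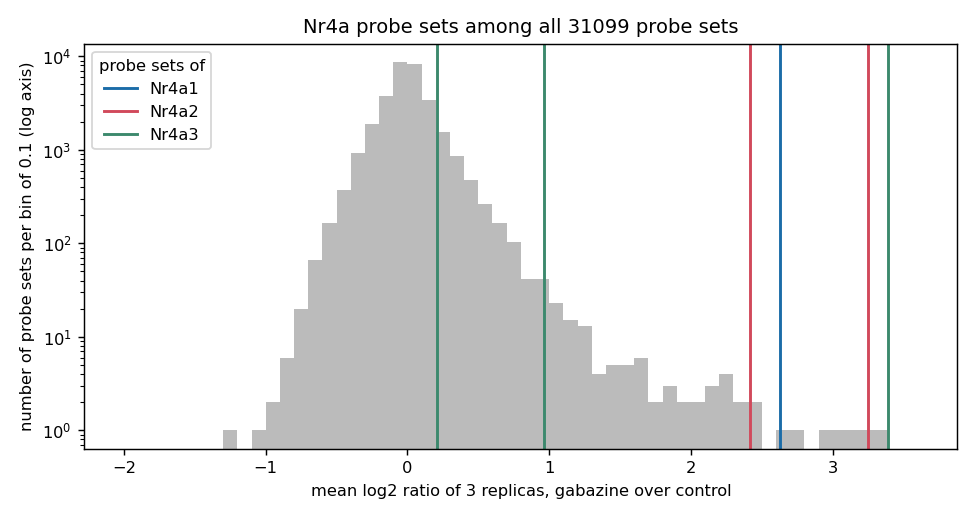
Number of probe sets (vertical axis, log scale) by mean log2 ratio over 3 replicas (horizontal axis, in bins of 0.1) for all 31099 probe sets, with a coloured line at each Nr4a probe set. The lines at 2.42, 2.63, 3.25 and 3.39 stand in the sparse upper end, the line at 0.96 on the upper slope and the line at 0.21 within the body of the distribution.

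The probe sets were also set against each other, within each replica. Of the 15 differences between 2 probe sets, 12 had the same sign in all 3 replicas, but an exact sign-flip permutation test over 3 pairs cannot give a two-sided p below 0.25, and the lowest adjusted p was 0.312. For Nr4a3 the log2 ratio of 1369067_at minus that of 1369217_at was -2.96, -2.13 and -2.20. For Nr4a2 the log2 ratio of 1369007_at minus that of 1387410_at was -1.35, -1.05 and -0.10, so that in replica 3 they were nearly equal. Between genes, the strongest probe sets of Nr4a2 and Nr4a3 differed by 0.01, 0.12 and -0.57 (Nr4a2 minus Nr4a3), with no steady sign. The log2 ratio of Nr4a1 minus that of 1369217_at was -0.95, -1.16 and -0.16, lower in all 3 replicas. By the signs alone, the order of the genes on their strongest probe sets places Nr4a1 below Nr4a3 and leaves Nr4a2 unplaced between the others. With all probe sets of a gene averaged first, the mean log2 ratios were 2.63 for Nr4a1, 2.83 for Nr4a2 and 1.52 for Nr4a3, which turns the order of Nr4a1 and Nr4a3. In the RT-PCR that the study reports, mean up-regulation was largest for Nr4a1 and smallest for Nr4a3. The order on the strongest probe sets therefore describes these probe sets only, not how strongly each gene responds.

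The DNA before the start of a gene holds the sites that activity-regulated factors are known to read: the CRE, bound by CREB, and the CArG box, bound by SRF. RefSeq windows of 300 bases (250 before to 50 after an annotated start, build GRCr8) were matched for Nr4a1 and Nr4a2. Each is shown here because both genes were higher in every replica. Nr4a3 had no window to match, so its absence here does not reflect its values. Both starts lie inside the annotated span of the gene, by 12985 bases for Nr4a1 and 11039 for Nr4a2, so that other annotated transcripts start farther upstream. Capitals mark the short CRE, TGACG or CGTCA on the other strand, and, in Nr4a1 only, a CArG box with 1 letter off, CCTTGTATGG.
Nr4a1 promoter, chr7:134259888-134260187, plus strand: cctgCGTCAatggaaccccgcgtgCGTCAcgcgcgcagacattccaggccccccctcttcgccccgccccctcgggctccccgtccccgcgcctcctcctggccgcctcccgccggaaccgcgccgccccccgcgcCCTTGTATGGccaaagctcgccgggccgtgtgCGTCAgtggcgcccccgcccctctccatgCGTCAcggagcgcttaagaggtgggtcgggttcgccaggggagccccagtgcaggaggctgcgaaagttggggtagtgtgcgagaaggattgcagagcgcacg
Nr4a2 promoter, chr3:62104838-62105137, minus strand: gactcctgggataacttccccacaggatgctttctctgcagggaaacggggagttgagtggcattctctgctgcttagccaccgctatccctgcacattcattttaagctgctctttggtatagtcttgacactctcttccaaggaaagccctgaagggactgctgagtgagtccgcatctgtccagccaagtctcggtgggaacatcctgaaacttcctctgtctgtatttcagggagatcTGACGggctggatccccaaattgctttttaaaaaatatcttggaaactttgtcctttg

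In the Nr4a1 window the short CRE occurs 4 times, all in the CGTCA reading, with first bases at -246, -226, -82 and -53 from the start. Of 33469 RefSeq promoter windows, 21.2% hold at least 1 short CRE and 0.236% hold 4 or more. The CArG box with 1 letter off lies at -114 to -105, and 20.1% of windows hold such a match on either strand. The study reports a conserved CArG box upstream of Nr4a1. In its assay of SRF bound to DNA (chromatin immunoprecipitation) in GabT cultures, that box gave a significant signal. Whether it is the match marked here was not tested. The Nr4a2 window holds 1 short CRE, at -8 to -4, and no CArG box even with 1 letter off. GC content was 72.3% in the Nr4a1 window and 48.7% in the Nr4a2 window, against a median of 51.7%. Neither window holds the full CRE TGACGTCA (1.83% of windows, and each of its copies also counts as a short CRE), an exact CArG box (1.64%), a MEF2 box (3.29%), the TATA box TATAAA (14.2%) or the NBRE AAAGGTCA (1.43%), the site that a single Nr4a protein binds. All motifs were searched on both strands, and a match or its absence says only which letters stand in the window.

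Among the other nuclear receptors, none had a mean ratio above 2. Of 45 listed genes 39 were measured on this array, each read on its brightest probe set, and their median log2 ratio was -0.01, equal to that of all 14218 genes. Higher values at an unadjusted p under 0.05 (limma) were found for 3 of the 39 (Thra, Nr1d1 and Nr1h4), against 2.37% of all genes, and a lower value for 1 (Thrb), against 2.84%. The same 3 were the ones higher in all 3 replicas, and Thrb and Rxrg were lower in all 3, where 7.79% and 10.8% of all genes were. Nr1d1, the clock repressor Rev-erb alpha, had log2 ratios of 0.14, 0.18 and 0.27. Dimmer probe sets reached 0.66 for Nr1d2 and -0.38 for Nr2c1. On the brightest probe sets the highest mean log2 ratios were 0.33 for Rora, 0.32 for Nr1h2 and 0.29 for Thra. Rora is a receptor of the circadian clock and of the cerebellum, Nr1h2 the liver X receptor beta and Thra the thyroid hormone receptor alpha. The value of Rora came from replica 1 alone, with log2 ratios of 1.26, -0.13 and -0.14. The lowest were -0.47 for the oestrogen-related receptor Esrrg, -0.34 for the glucocorticoid receptor Nr3c1 and -0.27 for the thyroid hormone receptor Thrb. For Esrrg the ratios were -1.25, 0.09 and -0.24, and for Nr3c1 -0.91, 0.09 and -0.20, both widest in replica 1. Thrb, at -0.24, -0.41 and -0.17, was the only one of these 3 that was lower in every replica.

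**Figure D4:**
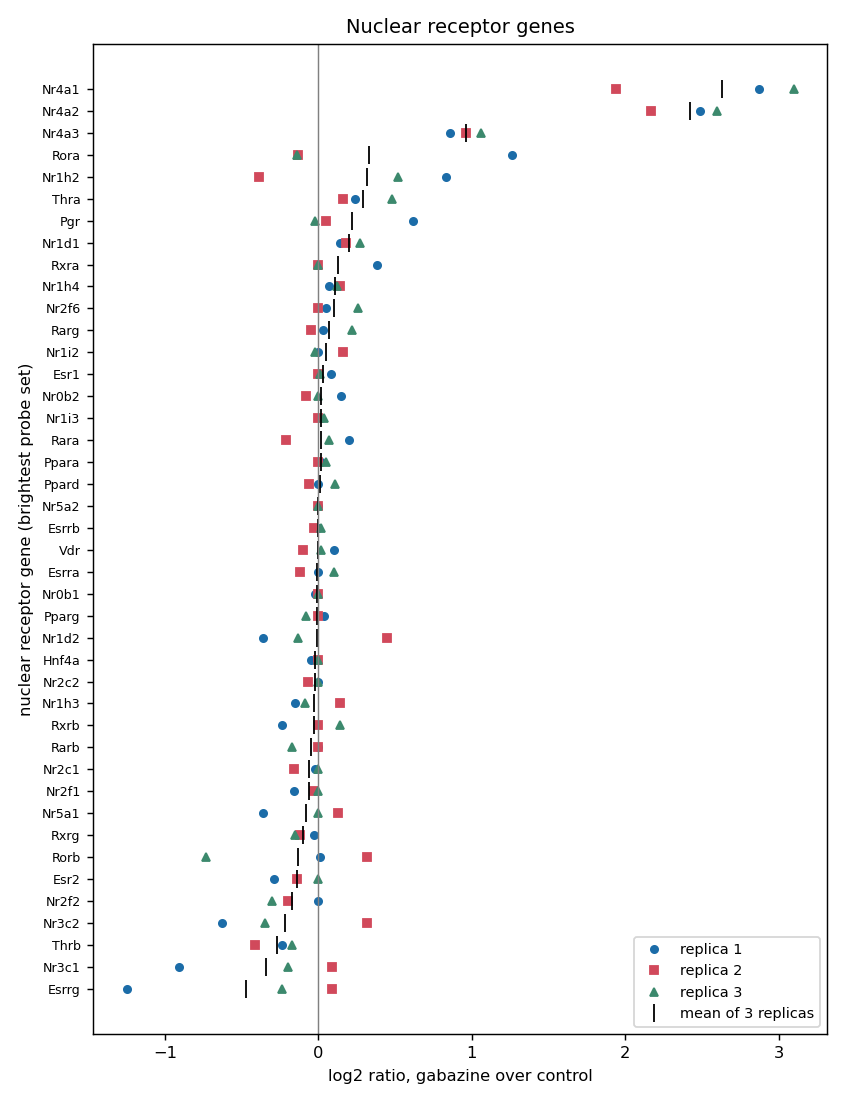
Log2 ratio of GabT over control (horizontal axis) for the 3 Nr4a genes and 39 other nuclear receptor genes (vertical axis), each on its brightest probe set, with 1 point per replica and a tick at the mean. The Nr4a genes lie at 2.63, 2.42 and 0.96, where Nr4a3 is shown on 1369067_at, and the others lie between -0.47 and 0.33.

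The enzymes that carry calcium, cAMP and MAP kinase signals to the Nr4a genes had mean log2 ratios between -0.38 and 0.25 on their brightest probe sets. Dimmer probe sets reached 1.01 for Ppp3r1 and 0.97 for Prkacb, a catalytic subunit of protein kinase A, and -0.55 for Camkk2. Of 27 listed, 24 were measured, with a median log2 ratio of 0.03, and 1 (Camk2g) had a higher value at an unadjusted p under 0.05 by limma and none a lower one, where 2.37% and 2.84% of all genes did. The highest were Camk2g at 0.25, a subunit of the calcium/calmodulin-dependent kinase II, the MAP kinase kinase Map2k2 at 0.25 and the calcineurin subunit Ppp3r1 at 0.23. Camk2g was higher in every replica, by 0.35, 0.24 and 0.15. The lowest were the ribosomal S6 kinase Rps6ka3 at -0.38, Camk2d at -0.24 and Mapk7, which codes for ERK5, at -0.11.

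Of the transcription factors and coregulators upstream of the Nr4a genes, 19 of 22 were measured, with a median of -0.03. Srf, the factor that binds the CArG box, had log2 ratios of 0.56, 0.62 and 0.57, a mean of 0.58 ± 0.02 (SE, n = 3), with an adjusted p of 0.747 by limma, from 0.000421 before the adjustment. Srf is itself an immediate early gene and stands in both lists. Next came Crtc2, a coactivator of CREB, at 0.31 and Hdac5, a class II histone deacetylase that represses MEF2 factors, at 0.07. The lowest were the acetyltransferase Ep300 at -0.36 and the CRE-binding factors Atf1 at -0.31 and Creb1 at -0.30. Creb1, at -0.45, -0.12 and -0.35, and Atf1, at -0.54, -0.29 and -0.10, were lower in every replica. In the list as a whole 5 genes (Creb1, Atf1, Crebbp, Ep300 and Sp1) were lower in all 3 replicas and 2 (Srf and Crtc2) were higher, against 10.8% and 7.79% of all genes. Dimmer probe sets of 4 of these 5 went the other way, up to 0.25 for Creb1, 0.45 for Crebbp, 0.10 for Ep300 and 0.40 for Sp1. An unadjusted p under 0.05 by limma was found for Srf and Crtc2 and, among the lower ones, for Creb1 and the acetyltransferase Crebbp, at -0.30, -0.14 and -0.36, against 2.37% higher and 2.84% lower over all genes.

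Genes of proteins that bind or modify the Nr4a receptors had mean log2 ratios between -0.20 and 0.25 on their brightest probe sets. Dimmer probe sets reached 1.02 for Hdac1, 0.84 for Mdm2, 0.55 for Fhl2 and 0.54 for Akt1. Of 24 listed, 21 were measured, with a median of -0.02, and 2 (Hdac3 and Fhl2) had a higher value at an unadjusted p under 0.05 by limma, against 2.37% of all genes. The highest were Fhl2, a LIM-domain protein, at 0.25, the corepressor deacetylase Hdac3 at 0.23 and the coactivator Ncoa3 at 0.16. The lowest were the coactivator Ppargc1a at -0.20, the kinase Mapk8 (JNK1) at -0.14 and the coactivator Ncoa2 at -0.13. The partners of Nr4a1 and Nr4a2 in heterodimers were at 0.13 for Rxra, -0.03 for Rxrb and -0.10 for Rxrg.

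Genes reported in one tissue or another as targets of an Nr4a protein had a median log2 ratio of 0.03 at 90 min, over 31 of 34 measured. Of these, Ddc and Sod1 had a higher value at an unadjusted p under 0.05 by limma, against 2.37% of all genes. With them, Cntn1, Slc2a4 and E2f1 made up the 5 of 31 that were higher in every replica, against 7.79%. A mean ratio above 2 was found for 1 gene, Bdnf, the brain-derived neurotrophic factor, with log2 ratios of 2.37, -0.24 and 2.12 and a mean of 1.42. Bdnf is itself an activity-regulated gene, and replica 2 went the other way. Nfkbia, an inhibitor of NF-kappaB, showed the same split, with 1.05, -0.03 and 1.12 and a mean of 0.72. Cntn1, a neuronal adhesion molecule, followed at 0.50, with 1.34 in replica 1 and 0.08 in each of the others. The lowest were the secreted phosphoprotein Spp1 at -0.28, Ppargc1a at -0.20 and Th at -0.20, the tyrosine hydroxylase of dopamine synthesis that Nr4a2 is known to activate. The NBRE was found in the promoter windows of 2 of the 25 target genes with a window, Cyp21a1 and Ddc, or 8.0%, against 1.49% of 27457 genes. Cyp21a1, an enzyme of steroid synthesis, had a mean log2 ratio of -0.07. Ddc, the decarboxylase of dopamine synthesis, had ratios of 0.34, 0.14 and 0.24.

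The immediate early transcription factors were the group most like the Nr4a genes. Of 29 listed, 27 were measured, with a median log2 ratio of 0.73, and 11 had a mean ratio above 2, against 0.232% of all genes. In all 3 replicas 18 were higher, against 7.79%, and none lower. A higher value at an unadjusted p under 0.05 by limma was found for 15, against 2.37%. The highest were Fosb, with log2 ratios of 3.50, 1.77 and 4.18 and a mean of 3.15, Junb, with a mean of 2.32, and Egr2, with a mean of 2.29. Fosb and Junb code for parts of the AP-1 factor and Egr2 for a zinc-finger factor. Egr1 reached 1.32 and Fos 1.00 on its brightest probe set. The lowest were Klf10 at -0.29, Id2 at -0.13 and Jund at -0.03. As for Nr4a3, probe sets of 1 gene could differ: the other probe set of Fos had a mean of 0.08, and that of Egr2 had log2 ratios of 3.48, 0.10 and 0.16. A short CRE was found in the windows of 11 of 20 of these genes, or 55.0%, against 23.0% of all genes.

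**Figure D5:**
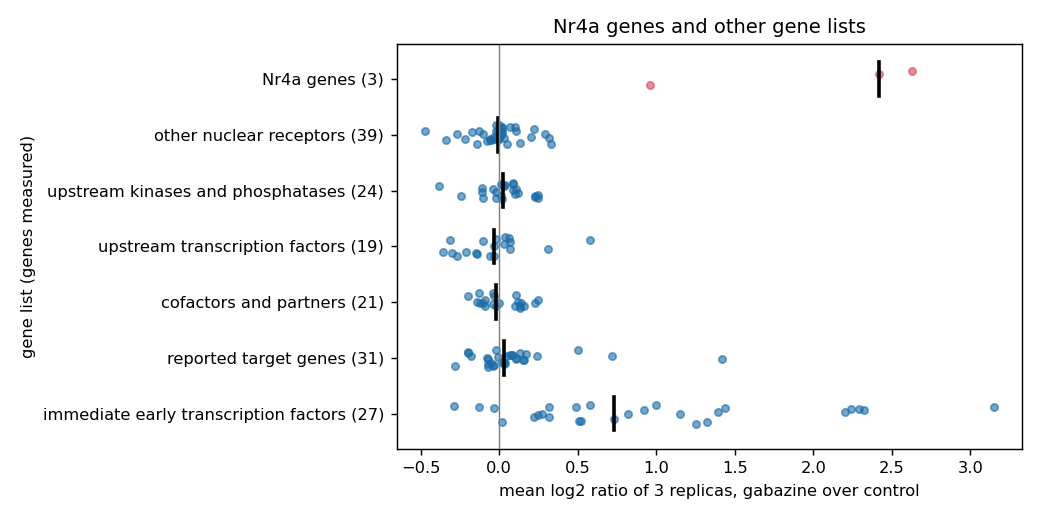
Mean log2 ratio over 3 replicas (horizontal axis) of the genes of each list (vertical axis), on the brightest probe set of each gene, with a black bar at the median. The immediate early transcription factors run from -0.29 to 3.15 with a median of 0.73, while the medians of the other 5 lists lie between -0.03 and 0.03.

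For each Nr4a gene, the 3 most similar genes outside the family were found by the Euclidean distance between the log2 ratios of the 3 replicas. The search covered 20826 probe sets with a single symbol and left out those of Nr4a1, Nr4a2 and Nr4a3. Nr4a1 was nearest to Arc (distance 0.69), a cytoskeletal protein of active synapses, then to Egr4 (0.87) and Egr2 (0.89). The log2 ratios of Arc were 2.58, 2.06 and 3.71, smallest in replica 2 as for Nr4a1. The probe set 1387410_at of Nr4a2 was nearest to Homer1 (1.43), a scaffold of the postsynaptic density, then to Rgs2 (1.64), a regulator of G-protein signals, and Junb (1.84). The probe set 1369217_at of Nr4a3 was nearest to Homer1 (1.18), Fosb (1.64) and Arc (1.67). For Homer1 the log2 ratios were 2.67, 3.07 and 3.52, highest in replica 3, where 1387410_at had its smallest. On these strongest probe sets the nearest genes of Nr4a2 and Nr4a3 outside the family were farther away than those of Nr4a1. The other probe sets of both genes were not compared in this way. Within the family, 1387410_at minus 1369217_at was 0.01, 0.12 and -0.57, so that they lay nearer to each other than to any gene named here. Nr4a1 minus 1369007_at of Nr4a2 was 0.38, -0.23 and 0.50, about as near as Arc. The likeness rests on 3 values per probe set and is a description.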

How the data were processed

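In all, 6 arrays of the Affymetrix RAT2302 type carried RNA of 3 control and 3 GabT samples. Per the labels and the methods, the authors computed the deposited log2 values by RMA; neither its version nor whether all arrays entered 1 run is stated in the material at hand. The values carry no background measure, so detection of a dim probe set is unknown, and the number of arrays limits the precision. In the annotation 20832 probe sets have 1 gene symbol, 436 have several and 9831 have none, and only those with 1 were used for names.

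GabT was compared with control in limma 3.58.1 (R 4.3.3) with replica as a block, eBayes and Benjamini-Hochberg adjustment across 31099 probe sets at a threshold of 0.05. The pairing comes from the methods, and the correlation between paired arrays of their deviations from the group mean was 0.794, 0.664 and 0.853. The fit was tested on simulated data of the same size. With the own spread of each probe set, 25 of 100 moved by a log2 ratio of 1 were called. Of those moved by 2, 68 of 100 were called. When all were given the median spread, 100 of 100 were called at both sizes. Probe sets called without having been moved numbered 3 in the former case and 13 in the latter. These shares do not give the power on the measured values, where ties were many and the fit called 0 of 31099 probe sets. Identical values on both arrays of a replica were found for 16.1%, 24.1% and 25.7% of probe sets, none of them of Nr4a genes. Each listed gene was read on its brightest probe set.

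The Nr4a genes, the 6 pathway lists and the 8 cell type lists were chosen with earlier results of these data known. The text names every Nr4a probe set, the 3 highest and 3 lowest members of each pathway list (none passed the adjusted threshold), the 3 nearest genes, Egr1, Egr2, Fos and Fosb, and markers where a result turns on them. The Rxr genes, Nr1d1, Nr1d2, Nr1h4, Nr2c1, Crebbp, Sp1, Slc2a4, Sod1, E2f1, Hdac1 and Mdm2 were named after their values were seen. So were Akt1, Prkacb, Camkk2, Cyp21a1, Ddc, Folr1, Kl, Kcnj13 and the control transcripts, beta-actin among them. Motifs were searched in RefSeq promoter windows with Python 3.11.15. Alternatives were no pairing, each replica left out, 3 other scalings, a filter of the 40% dimmest probe sets, eBayes with trend and robust options, the joint distribution of the methods, 1 averaged value per gene and, chosen after seeing the data, a filter of tied probe sets.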

Additional observations from a re-analysis of the deposited data

How the results depend on the processing

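The log2 ratios of the 6 Nr4a probe sets kept their sign in all alternatives run, with ranges of 2.40 to 2.98 for Nr4a1, 2.33 to 2.54 and 2.96 to 3.52 for Nr4a2 (1369007_at and 1387410_at), and 0.91 to 1.01, 3.18 to 3.54 and 0.07 to 0.39 for Nr4a3 (1369067_at, 1369217_at and 1393389_at). What changed was the call. Without the pairing, limma gave an adjusted p of 0.00432 for Nr4a1 at a log2 ratio of 2.63, of 0.0249 and 2.4e-05 for Nr4a2 at 2.42 and 3.25, and of 8.87e-06 for 1369217_at at 3.39, so that 4 Nr4a probe sets and 3 immediate early genes (Fosb, Junb and Egr2) passed in place of 0. By the joint distribution of the methods (threshold 0.005), the share of probe sets at least as high in all 3 replicas was 9.65e-05 for Nr4a1, 0.000161 and 3.22e-05 for Nr4a2, and 0.00109 and 3.22e-05 for Nr4a3, which pass, and 0.00514 for 1393389_at, which does not. This share places a probe set among the ratios of the array and does not weigh the spread between replicas. How many of all probe sets pass this threshold is not given here, so passing it cannot be set beside the limma calls. With tied probe sets left out, the adjusted p was 0.0623 to 0.741 by limma and none passed. Over the other alternatives no Nr4a probe set passed either. Leaving out replica 1 raised the count of Nr4a probe sets higher in all replicas from 5 to 6. This rise had to follow, because 1393389_at was lower only in replica 1 (-0.16), and the count then asks for fewer replicas.

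List medians moved by more than their spread between replicas in these cases. For the other nuclear receptors, whose median rounded to 0.0 in every replica, even shifts lost in rounding counted. The other nuclear receptors (-0.01) were at 0.0 without any one replica, -0.02 with centred or quantile-normalized arrays, -0.01 with cyclic loess, -0.03 without the 40% dimmest probe sets, 0.01 without tied probe sets and 0.02 with the mean of all probe sets. The upstream transcription factors (-0.03) were at -0.11 without replica 2, the only such case for this list, within a range of -0.11 to 0.01 over the 3 replicas left out in turn. The cofactors (-0.02) were at 0.03 without replica 1 and 0.0 without replica 2 (range -0.02 to 0.03 over the 3 left out in turn), -0.03 with centred arrays, 0.0 with cyclic loess and 0.07 with the mean of all probe sets. The reported targets (0.03) were at 0.0 with quantile normalization, 0.06 without the dimmest and 0.08 without tied probe sets. The causes were not tested. The planned comparison of the 3 protein sequences was not run.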

Other observations

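A further probe set, 1396563_at, is unnamed in the annotation used here, while the study lists it under Nr4a3. Its log2 intensity was 6.13, 6.90 and 7.61 in control and 9.13, 9.65 and 8.39 after GabT, so that the groups did not overlap. The log2 ratios were 3.00, 2.75 and 0.79, with a mean of 2.18 ± 1.21 (SD, n = 3), an adjusted p of 0.747 by limma and 0.0342 before the adjustment. Replica 3, which had the highest control value, gave the smallest ratio. Whether it reads an Nr4a3 transcript was not tested.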
